A study of Mus musculus with 7 samples.

Results

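The centrosomal proteins named CEP, for the centrosome in which most of them were found, were described at the level of their transcripts. A gene was taken as a member where its listed symbol began with Cep followed by a digit, and 36 of the 24341 genes listed met this rule. They were measured by RNA-seq in B-cell precursors (BCP) isolated from the spleen of Eμ-Ret mice. These mice, hemizygotes on a BALB/c background, carry a Ret fusion transgene under the immunoglobulin heavy chain enhancer, so that it is driven in the B lineage. There were 4 preleukemic samples, of young mice free of disease, and 3 leukemic samples, of older mice that were moribund with overt disease. Both groups carried the transgene, disease state went together with age, and no sample came from a mouse without the transgene, so that each difference given here is one between 2 stages in transgenic mice.

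A centrosome is a pair of centrioles inside a cloud of pericentriolar material that nucleates microtubules. Centrioles are copied once per cell cycle, the copies are held together by a linker until mitosis, and the older centriole carries distal and subdistal appendages with which it can dock at the membrane and build a cilium. CEP proteins act at each of these steps, and cells with too many centrosomes or chromosomes must still gather them into a bipolar spindle to divide.

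The unit was FPKM, the fragments per kilobase of transcript scaled to the mapped fragments of each sample, and fold changes were taken on log2(FPKM + 1), a scale that understates the change of low genes. The steps between the lowest values implied about 13400000 to 16000000 fragments per sample, at which a transcript of 3000 bases at 10 FPKM rests on about 402 fragments, with a counting error of 4.99% in the shallowest sample. B-cell precursor markers were high in every sample. Their summed level over 17 genes was 4490 to 7050 FPKM in the leukemic group and 8569 to 10760 FPKM in the preleukemic group. Of the 17, 4 were called lower in the leukemic group (limma adjusted p under 0.05). Their median log2 fold change was -0.61, and 1 of the 17 lay above 0. Enpep is the gene of the BP-1 antigen, which the paper used in sorting preleukemic BCP. It stood at 19.1, 102 and 77.2 FPKM in the leukemic samples and at 134 to 210 FPKM in the preleukemic samples. The leukemic samples also held markers of other cells. The summed level of 18 erythroid markers was 5818, 26730 and 13070 FPKM in leukemic replicates 1 to 3, against 2860 FPKM in preleukemic replicate 1 and 424 to 449 FPKM in the other preleukemic samples. Called higher in the leukemic group were 17 of 17 erythroid, 5 of 10 macrophage, 7 of 12 neutrophil and 4 of 4 platelet markers tested. Among plasma cell and T and NK cell markers, 1 of 6 and 0 of 10 were called higher. Called or not, all 10 macrophage and all 12 neutrophil markers lay above 0, as did 4 of 6 plasma cell and 7 of 10 T and NK cell markers. The summed macrophage level was 43.5 to 225 FPKM against 12.9 to 21.6 FPKM, the neutrophil level 1454 to 1806 FPKM against 152 to 882 FPKM, the platelet level 14 to 54.8 FPKM against 1.72 to 3.56 FPKM, the plasma cell level 488 to 1004 FPKM against 833 to 1068 FPKM, and the T and NK cell level 26.8 to 90.0 FPKM against 30.4 to 38.7 FPKM. In such bulk samples fewer cells of a type and less RNA per cell cannot be told apart, and the part of these other cells in the results that follow was not tested.

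CEP transcripts were found at low to moderate levels. The mean over the 7 samples ran from 2.39 FPKM for Cep85l to 45.7 FPKM for Cep250 among the 34 members with a summed level of at least 10 FPKM, which were tested, and the median of these means was 11.9 FPKM against 17.1 FPKM for all 10541 genes tested. The order of the highest members was not the same in the 2 groups. In the preleukemic group the 5 highest means were those of Cep164, Cep250, Cep68, Cep57 and Cep83, at 56.8, 52.7, 42.7, 33 and 28.5 FPKM. In the leukemic group they were those of Cep57, Cep250, Cep68, Cep83 and Cep55, at 41.7, 36.4, 32.9, 31.1 and 23.9 FPKM, and Cep164 stood lower, at 17.9 FPKM. Between Cep164 and Cep250 in the preleukemic group, and between Cep57 and Cep250 in the leukemic group, the means differed by less than the SD of either over samples. The remaining 2 members lay near the lowest value listed, 0.01 FPKM. Cep112 stood between 0.01 and 0.0393 FPKM in the 7 samples and Cep126 between 0.0199 and 0.162 FPKM, and they were not tested.

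Of the 34 members tested, 1 was higher and 6 were lower in the leukemic group by limma with Benjamini-Hochberg adjustment over all genes at 0.05. These 7 make up 20.6% of the members, beside 14.7% of all genes tested. Cep76, which keeps centrioles from being copied a second time, was the one that rose. Those that fell were Cep164, Cep170b, Cep41, Cep57l1, Cep170 and Cep120. Over all genes 8.47% were called higher and 6.26% lower. The remaining 27 members were not called, 28 of the 34 differed by less than 0.4 on the log2 scale, and the members' median difference was -0.07, beside -0.02 for all genes. In 11 members, 3 higher and 8 lower in the leukemic group, the ranges of the groups did not overlap, which held for 32% of all genes tested. The plot of fold changes by role sets the members side by side.

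**Figure D1:**
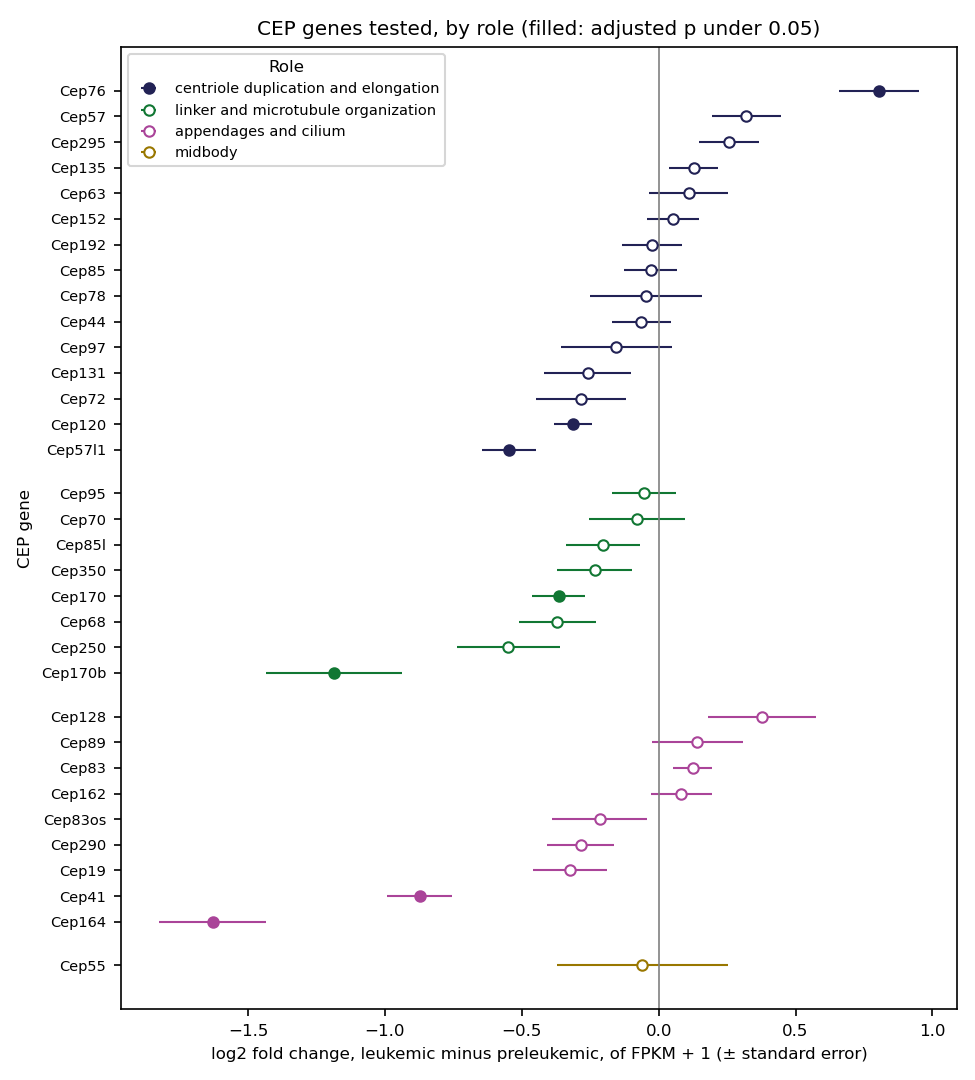
The log2 fold change of 33 of the 34 CEP genes tested, leukemic (n = 3) minus preleukemic (n = 4), on FPKM + 1, with its standard error, by role. Filled points have an adjusted p under 0.05. Cep164, at -1.63, lies farthest from 0, and all 8 genes of the linker and microtubule group lie below 0, with 2 of them called.

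The largest change among the members was that of Cep164, a distal appendage protein that mother centrioles need to dock at the membrane and that brings in the kinase Ttbk2. Its transcript stood at 12.8, 21.8 and 19.1 FPKM in leukemic replicates 1 to 3 and at 52.7, 71.1, 49.4 and 53.9 FPKM in preleukemic replicates 1 to 4. Every leukemic sample was far below every preleukemic sample. The mean was 17.9 ± 4.60 FPKM (SD, n = 3) against 56.8 ± 9.74 FPKM (SD, n = 4), which is 3.17 times as high in the preleukemic group (log2 fold change -1.63, SE 0.20, limma adjusted p = 0.00833). The lowest value was that of leukemic replicate 1, the leukemic sample with the lowest summed erythroid level. That sample also had the lowest summed B-cell precursor level, 4490 FPKM, and the lowest Enpep, 19.1 FPKM. The part of cell composition in this difference was not tested.

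Cep41, a ciliary protein needed for the glutamylation of tubulin in the axoneme, fell to nearly the same level in every leukemic sample. It was measured at 5.62, 6.03 and 5.83 FPKM in the leukemic samples and at 14.2, 10.7, 10.5 and 10.9 FPKM in the preleukemic samples. The groups did not overlap, and preleukemic replicate 1 stood above the other preleukemic samples. Its mean fell from 11.6 ± 1.76 FPKM (SD, n = 4) to 5.83 ± 0.20 FPKM (SD, n = 3; log2 fold change -0.87, SE 0.12, limma adjusted p = 0.0109). Cep164 and Cep41 passed the threshold in each of the 7 fits that left out 1 sample, and no other member did so.

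The bases just before the starts of the 3 members with the lowest adjusted p among those that fell, and of Cep55, a gene of dividing cells described further on, are shown because their letters can be set beside the expression of cell cycle genes. The sequences are those of RefSeq on GRCm38.p6, 250 bases up to the base before the RefSeq start, 5′ to 3′ along the gene. For Cep164 and Cep55 this start differs from that of the locus listed with the FPKM values. Cep164 is on the minus strand at chr9:45828664-45828913, Cep41 on the minus strand at chr6:30693750-30693999, Cep57l1 on the minus strand at chr10:41809869-41810118 and Cep55 on the plus strand at chr19:38054791-38055040. Capitals mark matches, on either strand, to the CHR element (TTTGAA or TTCGAA), which lies in promoters of genes expressed in mitosis, and to the CCAAT box, to which the factor NF-Y binds.
Cep164: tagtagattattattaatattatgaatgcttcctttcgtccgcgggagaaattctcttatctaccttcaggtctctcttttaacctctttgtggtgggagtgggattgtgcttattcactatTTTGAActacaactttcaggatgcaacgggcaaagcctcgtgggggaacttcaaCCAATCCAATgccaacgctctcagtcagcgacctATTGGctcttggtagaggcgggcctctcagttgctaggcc
Cep41: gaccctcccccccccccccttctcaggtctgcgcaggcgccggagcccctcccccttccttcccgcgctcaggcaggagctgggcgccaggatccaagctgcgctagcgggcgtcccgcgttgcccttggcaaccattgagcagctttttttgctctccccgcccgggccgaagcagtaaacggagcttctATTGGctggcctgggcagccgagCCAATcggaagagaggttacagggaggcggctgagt
Cep57l1: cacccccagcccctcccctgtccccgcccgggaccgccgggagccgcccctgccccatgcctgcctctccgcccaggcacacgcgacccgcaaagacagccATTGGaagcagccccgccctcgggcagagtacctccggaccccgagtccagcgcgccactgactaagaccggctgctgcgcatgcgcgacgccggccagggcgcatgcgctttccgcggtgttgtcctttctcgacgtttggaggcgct
Cep55: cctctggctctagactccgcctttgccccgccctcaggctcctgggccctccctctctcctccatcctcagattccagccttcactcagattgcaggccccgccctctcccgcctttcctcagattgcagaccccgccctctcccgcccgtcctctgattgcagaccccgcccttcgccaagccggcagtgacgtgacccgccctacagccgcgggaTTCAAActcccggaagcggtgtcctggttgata

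In the Cep164 window a CHR match began at -128 and CCAAT matches at -74, -69 and -40, counted from the RefSeq start. Cep41 had CCAAT matches at -59 and -36 and no CHR match. Cep57l1 had a CCAAT match at -149 and a CHR match just past the start, at 2, and Cep55 had a CHR match at -33. Windows of 300 bases, with 50 after the start, were matched for 29 of the 34 members and for 8124 of all genes tested. Genes of chromosome 18, among them the called members Cep76 and Cep120, were left out of both counts. A CHR match was found in 9 of the 29 members (31.0%) and in 13.6% of all windows, and a CCAAT match in 14 of 29 (48.3%) and in 39.7%. E2F letters (TTTCCCGC, TTTGGCGC, TTTCGCGC or TTTGCCGC) were found in 2 of 29 (6.9%), Cep128 and Cep63, and in 4.5% of all windows. The window of Cep170, at only 34.7% G and C, held a CHR match at -60, and that of Cep170b, at 77.0% G and C, held none of these letters. The median G and C content was 64.3% in the members and 61.0% in all windows. A match describes the letters and shows no site that was used.

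Cep164 sits with other proteins on the distal appendages, and the values of these are set beside it. Cep83, which is needed to bring the others to the mother centriole, stood at 31.95, 29.8 and 31.6 FPKM in the leukemic samples and at 29.1, 28.7, 29.2 and 26.9 FPKM in the preleukemic samples (log2 fold change 0.12, SE 0.07, limma adjusted p = 0.25). Its groups did not overlap, with each leukemic sample slightly the higher. Within each sample Cep164 stood at 40.1%, 72.9% and 60.5% of Cep83 in the leukemic group and at 181%, 248%, 169% and 200% in the preleukemic group, so that the order of the 2 transcripts was the opposite in the 2 groups.

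Cep89, another distal appendage protein, was measured at 11.2, 11.0 and 7.58 FPKM in the leukemic and 10.7, 7.68, 7.75 and 9.24 FPKM in the preleukemic samples, and the groups overlapped (log2 fold change 0.14, limma adjusted p = 0.57). Sclt1 and Fbf1, appendage genes outside the CEP names that were picked after their values were seen, differed by 0.00 and -0.24 on the log2 scale, and neither was called (limma adjusted p = 0.997 and 0.204). Ttbk2, the kinase that Cep164 brings to the centriole, was lower in the leukemic group, at 4.19, 3.59 and 4.02 FPKM against 5.14, 5.49, 5.34 and 5.68 FPKM (log2 fold change -0.38, SE 0.10, limma adjusted p = 0.0496). Its groups did not overlap, but the call was lost in each of the 7 fits that left out 1 sample (limma adjusted p from 0.053 to 0.14) and with no filter.

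**Figure D2:**
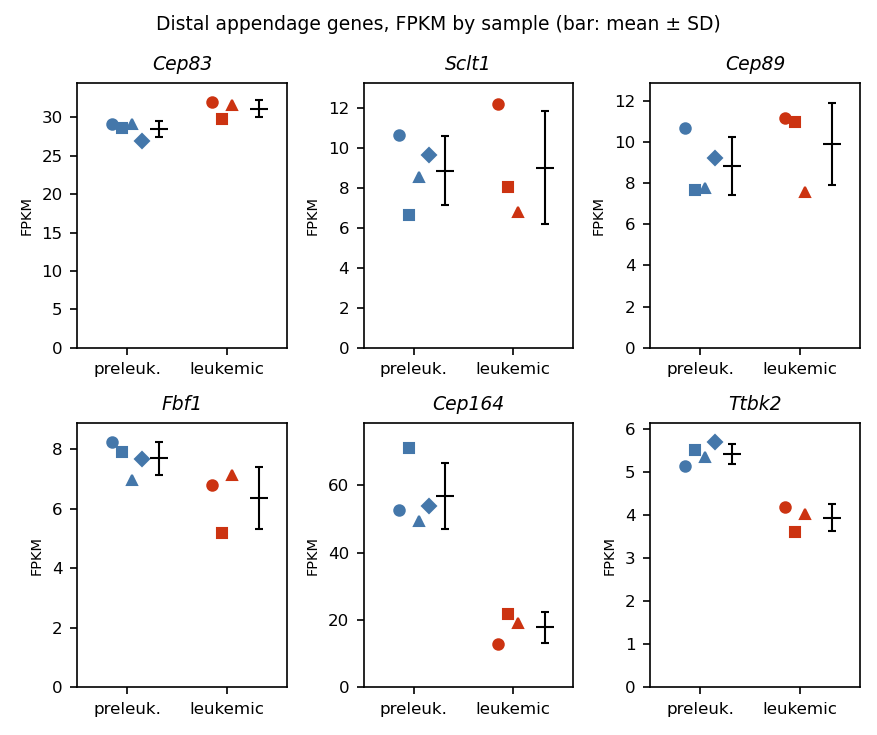
FPKM of 6 distal appendage genes in each sample, with blue points for the 4 preleukemic and red points for the 3 leukemic samples, marker shape for the replicate number and bars for the mean ± SD. Each vertical axis starts at 0 and has its own range. The groups stand apart for Cep164 and Ttbk2, lower in the leukemic samples, and for Cep83, slightly higher in them and not called. They overlap for Sclt1, Cep89 and Fbf1.

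Counted over all 10 tested genes of the appendages and the cilium, 2 fell, 0 rose and 8 were not called, with 5 above and 5 below 0 and a median of -0.09. Cep290, a large protein of the ciliary transition zone, stood at 3.19 to 4.18 FPKM in the leukemic and 4.36 to 5.04 FPKM in the preleukemic samples. These ranges did not overlap, but the difference was not called (log2 fold change -0.28, limma adjusted p = 0.15), and exons of the antisense gene 4930430F08Rik overlap it. Cep19, a distal protein of the mother centriole that acts early in cilium formation, differed by -0.33 (limma adjusted p = 0.14), and Cep128, a subdistal appendage protein, by 0.38 (limma adjusted p = 0.22). Cep162, a microtubule-binding protein of the transition zone, differed by 0.08 and was not called (limma adjusted p = 0.63). The list also held Cep83os, an antisense RNA at the Cep83 locus and not a protein, which differed by -0.22 and was not called (limma adjusted p = 0.41).

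The genes of the centrosomal linker and of microtubule organization all lay on the lower side. Each of the 8 tested had a negative log2 fold change, with a median of -0.30. Of these, 2, the paralogs Cep170b and Cep170, were called lower, and 6 were not called. Over all 34 members tested 23 lay below 0, and the median of all genes tested was -0.02. With 1 sample left out, the number below 0 was 7 or 8 of the 8. Without a filter on low values Cep126 entered, and 8 of 9 were below 0. Cep170 binds microtubules at the subdistal appendages of the mother centriole, and Cep170b is its close relative. Both were counted here, while Cep128, a subdistal appendage gene at 0.38, was counted with the appendages and the cilium. The count below 0 thus depends on how genes were assigned, and the role groups were made with earlier results of these data known.

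Cep170b was measured at 7.87, 16.4 and 7.73 FPKM in leukemic replicates 1 to 3 and at 23.8, 20.6, 25.8 and 26.9 FPKM in the preleukemic samples. The groups did not overlap, yet leukemic replicate 2 stood near the lowest preleukemic value and well above the other leukemic samples. The mean was 10.7 ± 4.98 FPKM (SD, n = 3) against 24.3 ± 2.75 FPKM (SD, n = 4; log2 fold change -1.19, SE 0.25, limma adjusted p = 0.0246). Leukemic replicate 2 had the highest summed erythroid and macrophage levels of all samples and the highest summed B-cell precursor level of the leukemic group. Without it the fold change was -1.52, and that was the one fit with a sample left out in which the gene was called.

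Cep170 changed less. It stood at 14, 13.2 and 17 FPKM in the leukemic samples and at 19.0, 19.6, 19.1 and 19.0 FPKM in the preleukemic samples, which lay close together. The groups did not overlap (log2 fold change -0.36, SE 0.10, limma adjusted p = 0.0465). The call was lost in 6 of the 7 fits that left out 1 sample and also with no filter or no intensity trend. Within each sample Cep170b stood at 56.1%, 125% and 45.4% of Cep170 in the leukemic group and at 125%, 105%, 135% and 141% in the preleukemic group, and these ranges overlapped.

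Cep250 (C-Nap1), the main fibre-forming protein of the linker between centrioles, had the highest mean of all members over the 7 samples, though in neither group taken alone. It was measured at 44.9, 26.0 and 38.1 FPKM in the leukemic samples and at 58.7, 44.8, 50.2 and 57.0 FPKM in the preleukemic samples, and the highest leukemic value, that of replicate 1, just passed the lowest preleukemic value. The difference of -0.55 (SE 0.19) was not called (limma adjusted p = 0.0901), and it was called when leukemic replicate 1 was left out. An antisense gene, 6430550D23Rik, overlaps exons of Cep250, and whether strand was used in the counting is not given in the sources used here.

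Cep68, a linker protein that is degraded in mitosis, stood at 30.3, 29.2 and 39.2 FPKM in the leukemic and at 39.8, 36.7, 45.8 and 48.6 FPKM in the preleukemic samples. Leukemic replicate 3 lay above the lowest preleukemic sample, and the difference of -0.37 (SE 0.14) was not called (limma adjusted p = 0.11). Cep350, Cep85l, Cep70 and Cep95 differed by -0.23, -0.20, -0.08 and -0.05 on the log2 scale, and none of them was called. Exons of Cep85l overlap those of the antisense gene Pln. Its groups did not overlap, at 1.99 to 2.19 FPKM in the leukemic and 2.505 to 2.81 FPKM in the preleukemic samples.

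Among the 15 genes of centriole duplication and elongation, 1 rose, 2 fell and 12 were not called, with 6 above and 9 below 0 and a median of -0.03. Cep76, which with Cp110 and Cep97 restrains the copying of centrioles, was measured at 12.3, 15.9 and 13.0 FPKM in the leukemic samples and at 8.63, 5.77, 7.82 and 7.57 FPKM in the preleukemic samples. Every leukemic sample was above every preleukemic sample, and leukemic replicate 2 was the highest. The mean was 13.7 ± 1.90 FPKM (SD, n = 3) against 7.45 ± 1.21 FPKM (SD, n = 4; log2 fold change 0.80, SE 0.15, limma adjusted p = 0.0175). The highest sample of each group, leukemic replicate 2 and preleukemic replicate 1, was also the one with the highest summed erythroid level of its group. The summed B-cell precursor level was the highest of its group in leukemic replicate 2 and the lowest of its group in preleukemic replicate 1.

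Cep97, the partner of Cp110 at the centriole cap, was measured at 6.44, 6.12 and 11.3 FPKM in the leukemic samples and at 7.24 to 9.47 FPKM in the preleukemic samples. Leukemic replicate 3 was the highest of all samples and the other leukemic samples were the lowest, and the difference of -0.16 (SE 0.20) was not called (limma adjusted p = 0.61). Within each sample Cep76 stood at 190%, 259% and 116% of Cep97 in the leukemic group and at 91.2%, 63.9%, 108% and 84.0% in the preleukemic group. Ccp110, the gene of Cp110, was picked after its values were seen and differed by 0.11 (limma adjusted p = 0.63).

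Cep57l1, a relative of Cep57 that helps to keep the mother and daughter centrioles engaged, was measured at 10.1, 7.86 and 9.09 FPKM in the leukemic samples and at 14.3, 13.3, 13.2 and 13.6 FPKM in the preleukemic samples. The preleukemic samples lay close together and above every leukemic sample (log2 fold change -0.55, SE 0.10, limma adjusted p = 0.0172). The lowest value was that of leukemic replicate 2. The antisense gene BC048559 overlaps its exons and is not analysed here.

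Cep57 itself, a pericentriolar protein whose loss lets centrioles part too early, lay on the other side. It stood at 47.8, 42.8 and 34.6 FPKM in the leukemic and at 32.4, 29.8, 36.9 and 33 FPKM in the preleukemic samples, with leukemic replicate 3 inside the preleukemic range (log2 fold change 0.32, SE 0.13, limma adjusted p = 0.12). It was called higher when leukemic replicate 3 was left out. Set beside each other within a sample, Cep57l1 stood at 21.2%, 18.4% and 26.3% of Cep57 in the leukemic group and at 44.2%, 44.7%, 35.7% and 41.1% in the preleukemic group. These ranges did not overlap, and since the pair was chosen after its values were seen no test is given.

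Cep120, which is needed for centrioles to elongate, showed a small and even difference. Its levels were 13.0, 13.4 and 13.6 FPKM in the leukemic and 17.1, 16.4, 16.6 and 17.2 FPKM in the preleukemic samples. The spread within each group was small beside the gap between them (log2 fold change -0.31, SE 0.07, limma adjusted p = 0.0277). The locus listed for Cep120 reaches past the end of the annotated gene.

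The scaffold proteins that start a new centriole by bringing in the kinase Plk4 were not called. Cep152 differed by 0.05 (SE 0.10, limma adjusted p = 0.73), Cep192 by -0.03 (SE 0.11, limma adjusted p = 0.89) and Cep63, which pairs with Cep152, by 0.11 (SE 0.14, limma adjusted p = 0.61). Cep63 was measured at 25, 19.9 and 16.7 FPKM in the leukemic and at 17.6, 17, 19.4 and 21.0 FPKM in the preleukemic samples, so that the leukemic samples spanned the whole preleukemic range. Without leukemic replicate 1 its difference was -0.04. The antisense gene Anapc13 overlaps its exons. Cep135, which connects the cartwheel to the centriole wall, and Cep295, which turns new centrioles into centrosomes, differed by 0.13 and 0.26 and were not called. The Cep295 groups did not overlap, at 13.2 to 17.5 FPKM in the leukemic and 11.6 to 12.6 FPKM in the preleukemic samples, and its exons overlap those of the antisense gene Taf1d. Cep44, Cep72, Cep78, Cep85 and Cep131 differed by -0.06, -0.28, -0.05, -0.03 and -0.26, and none was called.

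**Figure D3:**
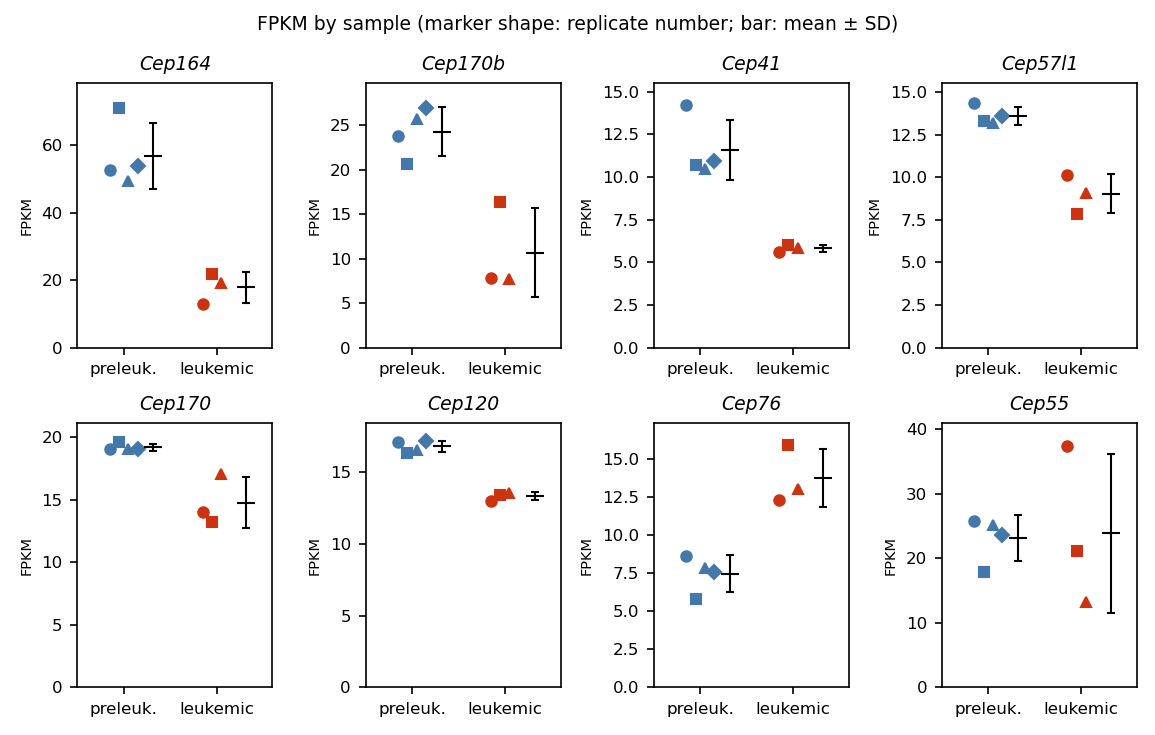
FPKM in each sample of the 7 CEP genes called and of Cep55, with blue points for the 4 preleukemic and red points for the 3 leukemic samples, marker shape for the replicate number and bars for the mean ± SD. Each vertical axis starts at 0 and has its own range. The groups stand apart in the first 7 panels, and in the Cep55 panel the leukemic samples, at 13.3 to 37.4 FPKM, reach beyond the preleukemic samples on both sides.

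Leukemic samples also differed from each other more than preleukemic samples did. The median coefficient of variation of the 34 members was 16.2% in the leukemic and 8.96% in the preleukemic group, and it was larger in the leukemic group for 26 of 34 members (76.5%), beside 72.6% of all genes tested. Cep55, which gathers at the midbody and brings in the machinery that cuts the last bridge between daughter cells, had the widest leukemic spread in FPKM. It was measured at 37.4, 21.1 and 13.3 FPKM in leukemic replicates 1 to 3 and at 25.8, 18.0, 25.2 and 23.6 FPKM in preleukemic replicates 1 to 4. The leukemic values enclosed the whole preleukemic range, and the difference was -0.06 with an SE of 0.31 (limma adjusted p = 0.91). Without leukemic replicate 3 it was 0.28.

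The summed level of 33 mitosis and proliferation genes was 4084, 2949 and 2294 FPKM in leukemic replicates 1 to 3 and 2605, 1568, 2383 and 2078 FPKM in preleukemic replicates 1 to 4. Cep55 followed the same order of samples within both groups. This held for 4 of the 34 members, Cep55, Cep72, Cep128 and Cep162 (11.8%), and for 3.98% of all genes tested, and it is given as a description because the order was noticed in these values. Per 1000 FPKM of that list, Cep55 stood at 9.16, 7.15 and 5.78 FPKM in the leukemic and at 9.91, 11.5, 10.6 and 11.4 FPKM in the preleukemic samples. On that scale every leukemic sample was below every preleukemic sample, and no test is given for the same reason. All 33 genes of the list lay above 0 in the leukemic group, with a median log2 fold change of 0.48. The lower ratio thus follows in part from the list, and Cep55 itself was not called.

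**Figure D4:**
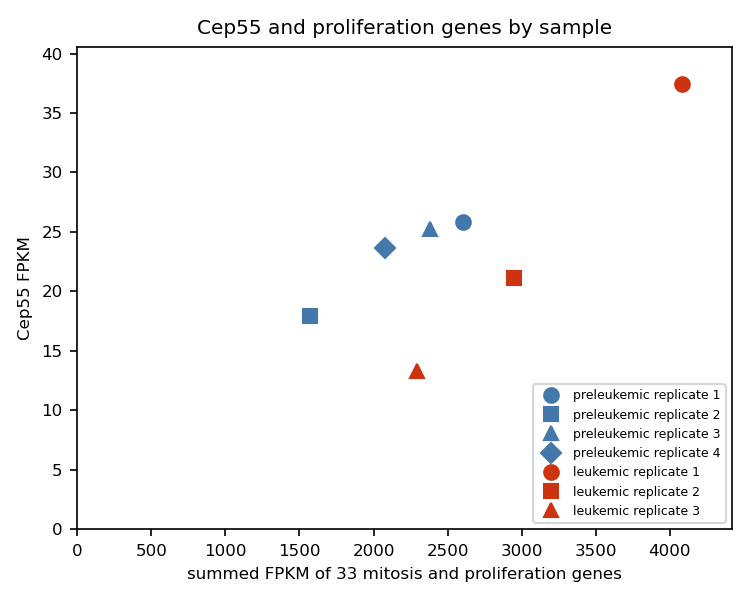
Cep55 in FPKM against the summed FPKM of 33 mitosis and proliferation genes in each of the 7 samples, blue for preleukemic and red for leukemic, with marker shape for the replicate number. Within each group the sample with the higher sum had the higher Cep55, and leukemic replicates 2 and 3 lie below the preleukemic samples nearest to them in sum, while leukemic replicate 1, at 4084 FPKM, has no preleukemic sample near it.

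The genes that work with the CEP proteins were read from lists drawn up by role, with earlier results of these data known. Of 108 such genes tested, 4 were called higher and 4 lower. Beside these 8, 14.7% of all 10541 genes tested were called, 8.47% higher and 6.26% lower. The counts by list that follow are to be read beside these shares. In the mitosis and proliferation list all 33 genes lay above 0, with a median of 0.48, and 2 were called. Those were the proliferation marker Mki67, at 162, 165 and 132 FPKM in the leukemic samples (log2 fold change 0.74, SE 0.17, limma adjusted p = 0.0316), and Kifc1, the motor that clusters extra centrosomes into 2 poles (log2 fold change 0.86, SE 0.23, limma adjusted p = 0.0489). Kifc1 stood at 33.8, 25.3 and 18.2 FPKM in the leukemic samples and at a mean of 13.6 FPKM in the preleukemic samples. Without leukemic replicate 1, 31 of the 33 lay above 0 and 0 were called by limma, and without leukemic replicate 3, 6 were called. The call of Kifc1 was kept in 1 of the 7 fits that left out 1 sample, the one without leukemic replicate 3, and was lost with no filter, upper quartile scaling or no intensity trend. The most abundant genes of that list, Pcna, Top2a and Rrm2, were not called, and their differences were 0.32, 0.28 and 0.47. The CEP genes, with a median of -0.07, lay on both sides of 0.

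Of 22 partners in centriole assembly, 0 rose and 1 fell, with a median of -0.05. The one was Ppp1r35, which is needed for centrioles to mature, at 32.5, 35.8 and 38.5 FPKM in the leukemic and 41.4 to 49.8 FPKM in the preleukemic samples (log2 fold change -0.38, SE 0.10, limma adjusted p = 0.0393). Plk4, the kinase that starts centriole copying, was picked after its values were seen and stood at 31.4, 23.0 and 17.1 FPKM against 12.4 to 20.7 FPKM (log2 fold change 0.43, SE 0.23, limma adjusted p = 0.24). Cetn3 and Cetn2, centrins that with Ppp1r35 had the highest means of the list, differed by 0.12 and -0.05 and were not called.

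Of 25 genes of the pericentriolar material and the gamma-tubulin ring, 0 rose and 2 fell, with a median of -0.01. Akap9, a scaffold that anchors gamma-tubulin, and Clasp1, which stabilizes microtubule ends, differed by -0.53 (SE 0.12, limma adjusted p = 0.0319) and -0.51 (SE 0.10, limma adjusted p = 0.0226). The most abundant genes of the list, Numa1, Ckap5 and Tacc3, differed by -0.28, 0.02 and 0.52 and were not called. Of 22 genes of satellites, linker and appendages, 2 rose and 1, Ttbk2, fell, with a median of -0.02. Those that rose were Ninl, a ninein-like protein at low levels of 1.51 to 4.43 FPKM in the leukemic samples (log2 fold change 1.11, SE 0.28, limma adjusted p = 0.0402), and Fgfr1op (0.48, SE 0.10, limma adjusted p = 0.026).

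Rab8a, Rab11a and Odf2, the most abundant genes of that list, differed by -0.13, 0.17 and 0.01 and were not called. None of the 11 genes of abscission, the step in which Cep55 acts, was called by limma, and 1 of them had an unadjusted p under 0.05. The most abundant of them, Chmp2a, Chmp4b and Racgap1, differed by 0.19, 0.06 and 0.25. Fgfr1op and Fopnl encode proteins also named Cep43 and Cep20, and the rule on listed symbols does not include them. Fopnl differed by -0.01 and was not called.

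The position of the members was read because leukemias of this model are known for gains of whole chromosomes. Genes of chromosome 9 stood higher in the leukemic group as a whole, with a median of 0.22 over 596 genes tested, 78 called higher and 7 lower. Of the other chromosomes that carry a tested member, the medians lay between -0.08 and -0.01. Chromosome 9 holds 6 tested members, and 4 of them lay above 0 and 2 above the chromosome's median. Cep57 and Cep295, at 0.32 and 0.26, were above it, and Cep63, Cep162 and Cep70, at 0.11, 0.08 and -0.08, were below it.

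Cep164, on the minus strand at chr9:45766946-45828638 (mm10), went the other way, with a difference of -1.85 from the median of its chromosome and a rank of 6 from the lowest of its 596 genes. Cep170b ranked 12 from the lowest of 368 genes on chromosome 12, and Cep41 ranked 25 of 493 on chromosome 6. Cep76 ranked 242 of 256 from the lowest on chromosome 18. Chromosome 17, with a median of 0.35 over 592 genes, holds no tested member, and Fgfr1op, named Cep43, lies there with its rise of 0.48. The called members lie, on mm10, at chr6:30653457-30693749 (Cep41, minus strand), chr10:41718840-41809868 (Cep57l1, minus), chr12:112722174-112746591 (Cep170b, plus), chr1:176733653-176807124 (Cep170, minus), chr18:67617397-67641336 (Cep76, minus) and chr18:53648151-53744547 (Cep120, minus). Quantile normalization moved the median of chromosome 9 to 0.18.

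**Figure D5:**
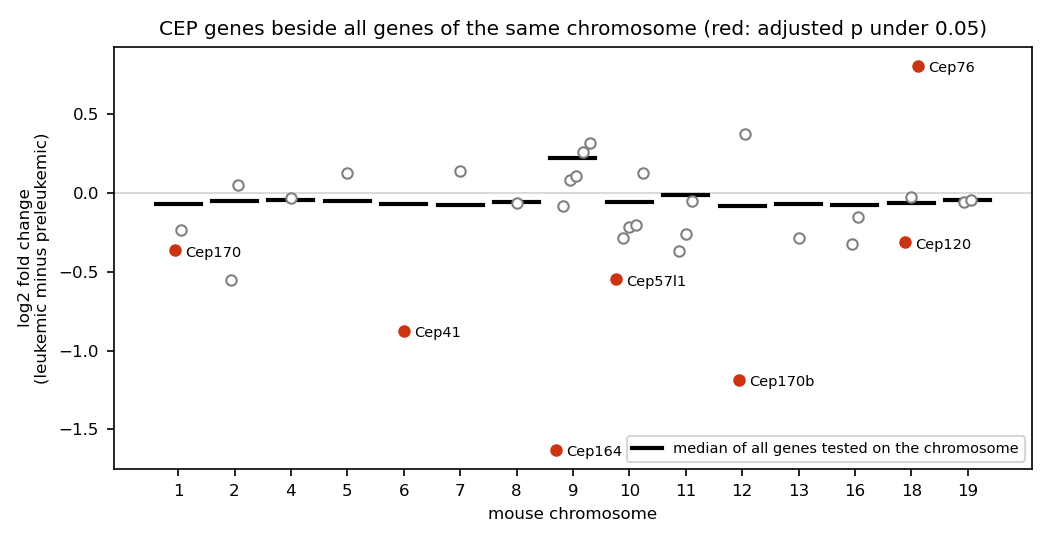
The log2 fold change, leukemic minus preleukemic, of 33 of the 34 CEP genes tested, by mouse chromosome, with a black bar for the median of all genes tested on that chromosome and red points for members with an adjusted p under 0.05. Chromosome 9 has its bar at 0.22, above those of the other chromosomes shown, and Cep164 lies at -1.63 below it.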

How the data were processed

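RNA was isolated by the authors from BCP of the spleen, and libraries were made with a stranded mRNA kit. The paper describes sorting of preleukemic BCP. For its culture experiments it states that leukemic spleen cells were in most cases not enriched. Its RNA-seq methods name no sort, and whether both groups were prepared alike is not given there. The submitters' processing notes name STAR 2.5.0b, Cufflinks 2.2.1, bedtools 2.17.0, Bowtie and DESeq2 and the build mm10, and which step each tool served is not given in the sources used here. The authors deposited 1 FPKM value per gene and sample, with no value below 0.01, for 24341 genes. Since FPKM values cannot enter a count model, the one the authors used was replaced by limma 3.58.1 in R 4.3.3, run on log2(FPKM + 1) with an intensity trend and without covariates.

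Genes with an FPKM sum over the 7 samples of at least 10 were tested (10541), p-values were adjusted by the method of Benjamini and Hochberg over all of them, and a gene was called under 0.05. The 7 samples were grouped by their labels. Depth was read from the steps between low values: 75.4% to 80.1% of 250 to 340 low values per sample lay within 0.1 of whole fragments, against medians of 10.5% to 12.8% over the depths tried, and counting errors cover counting alone. The fit was tested on simulated data.

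Values in every sample were given for called members, for the 2 members with the highest mean in each role group and for the 5 with the largest absolute fold change. From each partner list the 3 genes with the highest mean and at most 3 called genes were named. The members and lists were chosen with earlier results of these data known. Overlapping genes were read from GENCODE M21 and promoters from RefSeq. Promoters of chromosome 18, which carries Cep76, Cep120 and Cep192, were left out before matching. Cep350 was among those with no promoter entry. The members' counts take in 1 gene whose own values are not reported here. The alternatives were 2 other pseudocounts (0.1 and 0.5), no filter, a sum of at least 70, quantile normalization, upper quartile scaling, no intensity trend, a replicate block and leaving out each sample.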

Additional observations from a re-analysis of the deposited data

Results flagged for a closer look

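Among the 4 preleukemic samples, 5 of 56 genes examined, 4 of 34 CEP genes and 1 of 22 partners, had 1 sample far from the others by Dixon's criterion, which chance meets in about 1 in 20 groups. Cep41, the ciliary glutamylation gene, stood at 14.2 FPKM in preleukemic replicate 1, above the other samples. Preleukemic replicate 2 stood apart for 3 genes, with Cep162 low at 4.76 FPKM, Cep170 high at 19.6 FPKM and Cep85l high at 2.81 FPKM. Numa1, a spindle pole protein, was high at 59.6 FPKM in preleukemic replicate 4. Of these, Cep41 and Cep170 are among the genes called lower in the leukemic group. Without preleukemic replicate 1, Cep41 was still called, and without preleukemic replicate 2 the call of Cep170 was lost (limma adjusted p = 0.105).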

How the results depend on the processing

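Cep164 kept its direction in all 15 alternatives (-1.78 to -1.42) and its call in 14, and Cep41 kept its call in 13 of 14. Cep76 was called in 12 of 15, Cep57l1 in 11, Cep120 in 10, Cep170b in 8 and Cep170 in 6. The number of CEP genes called was 6 or 7 under other pseudocounts, filters, scalings and no trend, and between 2 and 7 with 1 sample left out. It was 4, 3, 2 and 2 without preleukemic replicates 1 to 4, where all genes called fell from 1553 to 932, 443, 271 and 149. Partner genes called ran from 0 to 14 with 1 sample left out, with 14 without leukemic replicate 3, 5 without leukemic replicate 1, 3 without leukemic replicate 2 or preleukemic replicate 1, and 0 by limma without preleukemic replicate 2, 3 or 4, where 21, 22 and 19 had an unadjusted p under 0.05. The cause was not tested. The median of the CEP genes ran from -0.15 to -0.07 with 1 sample left out.

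Same-numbered samples did not deviate together (correlations of 0.03, 0.05 and -0.09). The labels name no pairing, and so few values cannot exclude one. With a replicate block 0 CEP genes and 0 partner genes were called by limma, 9 and 23 had an unadjusted p under 0.05, and 0 of all 10541 genes were called. Near 0, signs changed. With quantile normalization Chmp4b was -0.0162, Ckap5 -0.0078 and Odf2 -0.0114, and with upper quartile scaling Ckap5 was -0.002 and Odf2 -0.0095. With 1 sample left out the values ran from -0.431 (without leukemic replicate 1) to 0.2834 (without leukemic replicate 3) for Cep55, from -0.037 to 0.2438 for Cep63, from -0.239 to 0.238 for Ckap5 and from -0.0138 to 0.4726 for Top2a between the same 2 fits, and from -0.1174 to 0.0512 for Cetn2 and -0.0484 to 0.0964 for Odf2 between those without leukemic replicates 2 and 3. Of the called partners, Clasp1 kept its call in 4 of the 7 fits that left out 1 sample, Fgfr1op in 3, Akap9 and Mki67 in 2, Kifc1, Ninl and Ppp1r35 in 1 and Ttbk2 in 0. Counting error, 4.99% at 10 FPKM and 3000 bases, is larger at lower FPKM.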
